A study of Mus musculus with 2 samples.

Results

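Transcripts of 10 heat shock proteins and chaperones were examined in single microglia taken 24 h after systemic inflammation from mice with and without DJ-1, the product of Park7. The 10 genes were taken by name from the 19537 gene rows of the expression matrices. They comprise 5 stress-inducible cytosolic genes (Hspa1a, Hspa1b, Dnajb1, Hsph1 and Hsp90aa1) and 5 constitutively expressed genes, of which Hspa8, Hsp90ab1 and Dnaja1 act in the cytosol, Hspa5 in the endoplasmic reticulum (ER) and Hspd1 in mitochondria. All 10 genes were present in both matrices. There were 2 groups. KO LPS held microglia of *PARK7*/DJ-1 knock-out mice, a line made by a gene trap in Park7 and backcrossed to C57BL/6NCrl, and WT LPS held microglia of wildtype littermates. Both groups had received lipopolysaccharide (LPS), a bacterial membrane component, by intraperitoneal injection 24 h before the cells were taken, and no untreated group was analysed here. The mice were 3 to 4 months old, and by the study's account each library pooled 2 mice, a female and a male. Brain cells gated as CD11b+CD45int were sorted and run on Drop-seq, a droplet method that reads transcripts from their 3′ end, tags each droplet with a barcode and each captured molecule with a unique molecular identifier (UMI).

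The comparison asked how the absence of DJ-1, a small redox-sensitive protein to which chaperone activity has been ascribed, alters chaperone transcripts in microglia under inflammation. There was 1 library per genotype, so that no replicate error could be measured, no test was made and no p-value is given. Genotype and library cannot be told apart. All intervals are exact 95% intervals that cover counting error only. A barcode was taken as a cell when it held at least 500 UMIs and at least 100 genes, which gave 320 cells for KO LPS and 1427 for WT LPS, holding 381305 and 1989011 UMIs. These were 55.7% of 684738 and 64.9% of 3063795 UMIs. Cells of KO LPS had a median of 963.5 UMIs and 637 genes, and cells of WT LPS 1065 UMIs and 693 genes, and 0 cell barcodes were shared by the libraries. A level is the summed UMIs of a gene in the cells per 1e6 UMIs of these cells (CPM). A UMI stands for 1 transcript captured at its 3′ end, so that levels of different genes were compared without division by length.

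Chaperones bind unfolded or partly folded proteins and keep them from aggregating. HSP70 proteins bind and release short hydrophobic stretches in a cycle driven by ATP, which J-domain proteins start by delivering the client and which HSP110 proteins reset by exchanging the nucleotide. HSP90 acts later on kinases, hormone receptors and other signalling proteins, BiP (Hspa5) does the work of an HSP70 in the ER, and Hspd1 forms the folding chamber of mitochondria. The inducible genes are classical targets of heat shock factor 1, which binds repeats of the unit GAA and its reverse TTC, whereas Hspa5 is a classical target of the unfolded protein response through the ER stress response element (ERSE). Both programmes are often engaged in activated macrophages, and inducible chaperones are also known to respond to tissue dissociation.

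The labels were checked first. Park7 (chromosome 4, 150897133 to 150909921) was counted 1 time in KO LPS and 323 times in WT LPS, at 2.62 and 162 CPM. Its ratio was 0.0161 (0.000408 to 0.0906), which goes with the labelled genotypes. Gene positions are those of RefSeq on GRCm38.p6 (mm10). All 10 microglial marker genes were found in both libraries, at a summed 33868 CPM for KO LPS against 29257 CPM for WT LPS, and 319 of 320 and 1427 of 1427 cells had a UMI of them. Transcripts of the sexes were not found in like proportions. In KO LPS, 200 cells had an Xist UMI and no Y-linked UMI, 12 cells had the reverse, 9 had both and 99 had neither. The counts for WT LPS were 565, 195, 80 and 587 cells, and a cell with neither cannot be given a sex at this depth. Markers of other cell types, which the sorting gate should remove, also differed. Choroid plexus markers (3 of 4 present in each library) summed to 1883 CPM in KO LPS but 11.1 CPM in WT LPS. Astrocyte markers (4 of 5 in each, Aqp4 at 0) summed to 365 and 171 CPM. Endothelial markers (3 and 4 of 4) summed to 81.3 and 15.1 CPM. Neutrophil markers (0 and 3 of 4, with no row for Ly6g in the matrices) summed to 0 and 64.4 CPM. The other lists lay between 0 and 62.9 CPM in both libraries. Leaving out 11 KO LPS cells and 22 WT LPS cells that held at least 3 UMIs of another cell type left 9 members lower by at least 1.5-fold, the same count as with all cells, and 26.1% of all genes.

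The promoters of the HSP70 pair and of Hspa5 are shown because they hold letters of the elements named above, in the cytosolic members with the lowest levels and in the ER member with the highest. Each is the 250 bases before the transcription start in RefSeq on GRCm38.p6, written 5′ to 3′ on the strand of the gene, with capitals marking GAANNTTC in the HSP70 genes and the ERSE in Hspa5. Hspa1a lies at chr17:34972157-34972406 and Hspa1b at chr17:34959239-34959488, both on the minus strand, and Hspa5 at chr2:34771840-34772089 on the plus strand.
Hspa1a: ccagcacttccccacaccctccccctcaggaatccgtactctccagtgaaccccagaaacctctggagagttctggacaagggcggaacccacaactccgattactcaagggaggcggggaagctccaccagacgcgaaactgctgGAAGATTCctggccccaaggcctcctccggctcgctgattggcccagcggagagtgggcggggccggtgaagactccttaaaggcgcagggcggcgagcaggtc
Hspa1b: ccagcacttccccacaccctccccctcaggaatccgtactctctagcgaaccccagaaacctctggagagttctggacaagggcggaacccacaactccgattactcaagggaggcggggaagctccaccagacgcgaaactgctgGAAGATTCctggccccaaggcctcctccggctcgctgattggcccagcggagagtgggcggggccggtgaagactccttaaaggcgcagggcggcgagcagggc
Hspa5: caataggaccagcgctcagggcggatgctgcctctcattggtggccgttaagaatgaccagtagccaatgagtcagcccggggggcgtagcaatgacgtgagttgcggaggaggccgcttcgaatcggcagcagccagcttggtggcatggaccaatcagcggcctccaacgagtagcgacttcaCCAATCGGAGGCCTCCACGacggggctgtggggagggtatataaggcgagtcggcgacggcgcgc

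The promoters of Hspa1a and Hspa1b were identical at 247 of 250 positions (98.8%), and in both the match GAAGATTC lay 104 to 97 bases before the start. The table matched 7 of the 10 members, and Hspa8, Hsp90aa1 and Hsp90ab1 had no entry. Several start sites were listed for Dnajb1, Hsph1, Dnaja1 and Hspd1. Only the most upstream of them was searched, so that a match at another start site would be missed. Letters GAANNTTC or TTCNNGAA, which are 2 units and were searched on both strands, were found in 4 of these 7: Hspa1a, Hspa1b, Hsph1 (TTCTCGAA, 33 to 26 bases before the start) and Dnaja1 (GAAAATTC, 124 to 117 bases before it). Of all 32851 promoters of the same length, 12.8% held such a match. The longer form with 3 units, in which GAANNTTC is followed by any 2 bases and a further GAA, was in 0 of 7 members and in 0.466% of all promoters. The ERSE, CCAAT and CCACG with 9 bases between them, was in 1 of 7 members, Hspa5, at 65 to 47 bases before its start, and in 0.113% of all promoters. A match describes letters and is not a measured binding site.

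All 10 members had a lower level in KO LPS than in WT LPS. Of the 9 members with at least 20 UMIs over both libraries in at least 3 cells, 9 were lower by at least 1.5-fold and 0 were higher. Among all 9085 genes with as many UMIs, 25.8% were lower by this fold and 26.2% were higher. The median log2 ratio, taken as KO LPS over WT LPS, was -1.15 for the 9 members and 0.03 for all genes. Hspa1a, with no UMI in KO LPS, and Dnajb1, with 7 UMIs against 67, passed the minimum only through WT LPS. The median stayed -1.15 with Hspa1a at its bound. Raising the minimum to 200 UMIs left 7 members, of which 7 were lower by 1.5-fold, against 29.6% of 2462 genes. At 2-fold, 7 of 9 members were lower, against 15.3% of all genes. Fewer UMIs of a gene per 1e6 can reflect fewer cells with the transcript or fewer transcripts per cell, which a summed level does not tell apart.

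**Figure D1:**
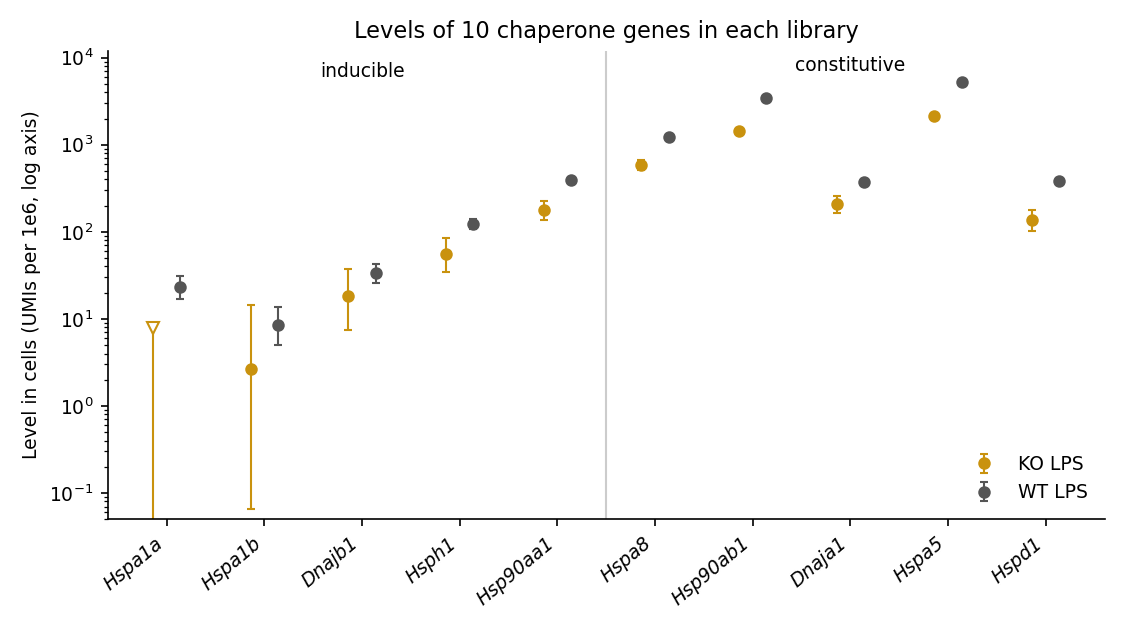
Level of each of the 10 chaperone genes in KO LPS (320 cells) and WT LPS (1427 cells), in UMIs per 1e6 on a log axis, with bars for exact 95% Poisson intervals. The open triangle marks the floor of 3 counts for Hspa1a, which had 0 UMIs in KO LPS, and every KO LPS value lies below its WT LPS value.

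Hspa1a and Hspa1b encode the same stress-induced HSP70 protein from neighbouring genes. Hspa1a (chromosome 17, 34969359 to 34972156) had 0 UMIs in KO LPS but 46 UMIs in 38 cells of WT LPS, or 23.1 CPM. Against the floor of 3 counts in KO LPS, 7.87 CPM, its level was at least 2.94-fold lower there. Hspa1b (chromosome 17, 34956429 to 34959238) had 1 UMI against 17, or 2.62 and 8.55 CPM, and its ratio of 0.307 (0.00734 to 1.96) was within counting error. The pair summed to 1 UMI and 63 UMIs, a ratio of 0.0828 (0.00206 to 0.478). Their transcripts were 85.5% identical over the whole length but 52.8% over the last 300 bases (GENCODE vM39), and how reads matching both genes were counted is not given in the sources used here, so that the split between them is uncertain.

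The J-domain members are partners of HSP70. Dnajb1, the stress-inducible HSP40 (chromosome 8, 83608175 to 83612653), had 7 UMIs in KO LPS against 67 in WT LPS, or 18.4 and 33.7 CPM, and its ratio of 0.545 (0.211 to 1.19) was within counting error. Dnaja1, the main constitutive J-domain protein of the cytosol (chromosome 4, 40722468 to 40734965), had 79 and 745 UMIs, or 207 and 375 CPM. Its ratio was 0.553 (0.433 to 0.698). Hsph1, the HSP110 nucleotide exchange factor (chromosome 5, 149616843 to 149636498), had 21 and 245 UMIs, or 55.1 and 123 CPM, with a ratio of 0.447 (0.272 to 0.699). The interval of Hsph1 lay below 1, as did that of Dnaja1.

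The HSP90 pair showed similar ratios at unequal levels. Hsp90aa1, the inducible form (chromosome 12, 110691036 to 110696395), had 67 UMIs against 781, or 176 and 393 CPM, and a ratio of 0.447 (0.343 to 0.575). Hsp90ab1, the constitutive form (chromosome 17, 45567778 to 45573261), had 547 and 6848 UMIs, or 1434.5 and 3443 CPM, and a ratio of 0.417 (0.381 to 0.455). The odds of an Hsp90aa1 UMI against an Hsp90ab1 UMI did not differ between the libraries beyond counting error, with an odds ratio of 1.07 (0.812 to 1.40).

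The constitutive HSP70 members and the mitochondrial chaperonin were lower as well. Hspa8, the constitutive HSC70 of the cytosol (chromosome 9, 40801276 to 40805202), had 225 UMIs against 2412, or 590 and 1213 CPM, a ratio of 0.487 (0.423 to 0.558). Hspa5 (chromosome 2, 34772090 to 34776529) had 813 and 10400 UMIs, or 2132 and 5229 CPM, a ratio of 0.408 (0.379 to 0.438). This was the most abundant member in both libraries, and its difference of 2.45-fold was the most precise (2.28 to 2.64). Hspd1 (chromosome 1, 55077833 to 55088243) had 52 and 771 UMIs, or 136 and 388 CPM, and a ratio of 0.352 (0.260 to 0.466), the lowest among members with at least 200 UMIs. Hspa5 and Hspd1 differed more between the libraries than Hspa8 did. Relative to Hspa8, the odds ratio was 0.838 (0.717 to 0.982) for Hspa5 and 0.723 (0.518 to 0.993) for Hspd1, whereas those of Hsp90ab1 at 0.856 (0.727 to 1.01) and Dnaja1 at 1.14 (0.857 to 1.496) included 1. With the HSP90 pair, 5 such pairs were compared, and their intervals were not adjusted for this number.

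**Figure D2:**
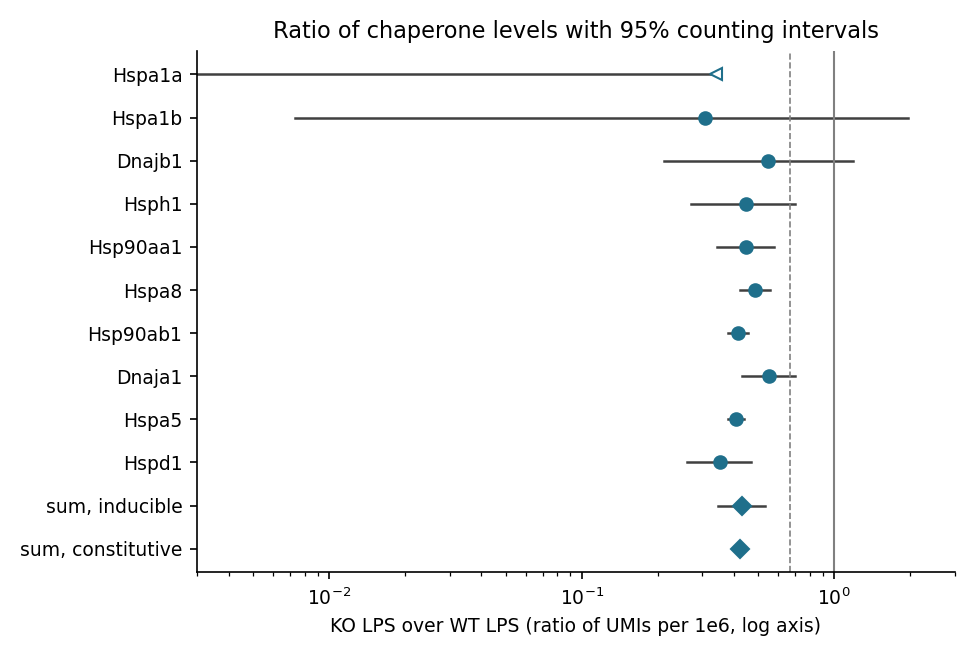
Ratio of the level in KO LPS over that in WT LPS on a log axis for each gene and for both sums, with exact 95% intervals of counting error. The solid line marks equal levels, the dashed line 1.5-fold lower and the open triangle the upper bound for Hspa1a from the floor of 3 counts, and all ratios lie below 1 with the intervals of Hspa1b and Dnajb1 crossing it.

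Inducible and constitutive members were lower by nearly the same factor. The inducible members summed to 96 UMIs in KO LPS against 1156 in WT LPS, or 252 CPM (204 to 307) and 581 CPM (548 to 616), a ratio of 0.433 (0.348 to 0.534). The constitutive members summed to 1716 and 21176 UMIs, or 4500 CPM (4290 to 4718) and 10647 CPM (10504 to 10791), a ratio of 0.423 (0.402 to 0.444). Most of the inducible sum was Hsp90aa1, which is also expressed without stress. Without this gene, the other 4 inducible members summed to 76.1 and 189 CPM, a ratio of 0.403 (0.266 to 0.589). Without Hspa5, the constitutive ratio was 0.437 (0.408 to 0.468). All 10 members together summed to 4752 CPM in KO LPS against 11228 CPM in WT LPS, which was 2.36-fold lower in KO LPS (2.25 to 2.48).

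The make-up of the chaperone transcripts, which does not depend on library size, was close in both libraries. Inducible UMIs made up 5.30% of 1812 member UMIs for KO LPS (4.31 to 6.43) and 5.18% of 22332 for WT LPS (4.89 to 5.48). The odds ratio of inducible over constitutive UMIs was 1.02 (0.819 to 1.27), and 0.954 (0.628 to 1.40) without Hsp90aa1. Hspa5 made up 44.9% and 46.6%, Hsp90ab1 30.2% and 30.7%, and Hspa8 12.4% and 10.8%. These 3 genes led in the same order in both libraries, and each differed from the next beyond counting error. Dnaja1, Hsp90aa1 and Hspd1 followed at ranks 4 to 6, and neighbours among them did not differ beyond counting error in either library. Over these ranks, Dnaja1 exceeded Hspd1 by 1.52-fold in KO LPS (1.06 to 2.199), whereas Hsp90aa1 and Dnaja1 in WT LPS differed by 1.05-fold (0.947 to 1.16). Hsph1 stood at rank 7 and Dnajb1 at rank 8 in both. The lowest ranks were taken by Hspa1a and Hspa1b, which differed from each other in WT LPS by 2.71-fold (1.52 to 5.03) and could not be ordered in KO LPS.

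**Figure D3:**
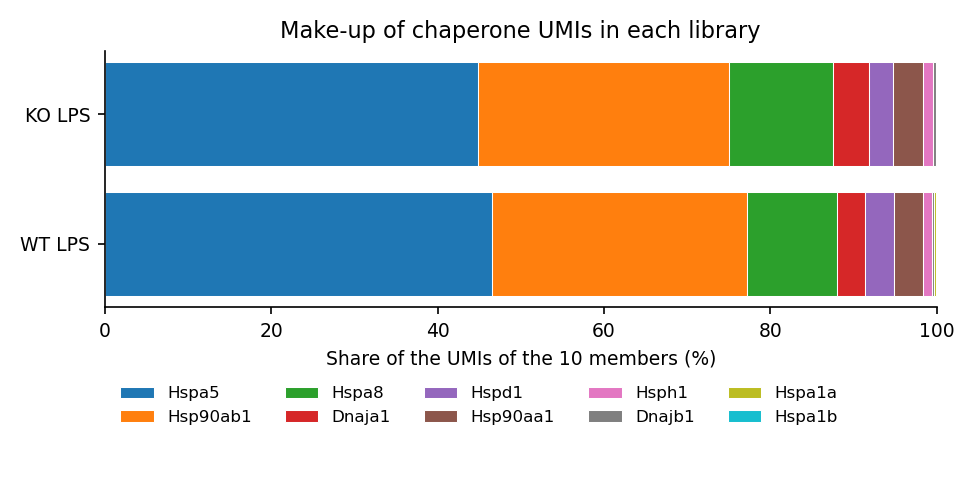
Share of each gene among the UMIs of the 10 members, in percent of 1812 UMIs for KO LPS and 22332 UMIs for WT LPS. The bars are nearly the same, with Hspa5 at 44.9% and 46.6% and Hsp90ab1 at 30.2% and 30.7%.

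The share of cells with a transcript was compared after each cell had been thinned to 500 UMIs, which kept all 320 and 1427 cells. Free RNA in the suspension also gives UMIs in a droplet, and no cell type lacks these chaperones. The background was therefore the share expected of a droplet filled with 500 UMIs from barcodes of 100 UMIs or fewer. Hspa8 was present in 23.4% of KO LPS cells (18.9 to 28.5) and 38.2% of WT LPS cells (35.7 to 40.8), above backgrounds of 13.4% and 23.2%. Hspd1 was present in 6.56% (4.11 to 9.86) and 16.3% (14.4 to 18.3), against 3.95% and 11.5%. The shares of Hspa8 lay above their background in both libraries and that of Hspd1 in WT LPS, while the background of Hspd1 in KO LPS rests on 16 UMIs and leaves its excess unresolved. Without thinning the shares were 42.5% and 63.8% for Hspa8 and 11.6% and 32.9% for Hspd1. Dnaja1 was present in 17.0% of cells in WT LPS (15.0 to 19.0), above a background of 11.5%, and in 11.6% in KO LPS (8.27 to 15.6), which included the background of 9.12%.

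Shares of the other members lay below their background or had intervals that included it, with 1 exception, and were not read as expression in single cells. The exception was Dnajb1 in WT LPS, at 1.61% (1.02 to 2.41) against a background of 0.474% that rests on 3 UMIs, while KO LPS had 0.625% (0.0758 to 2.24) against 2.48%. For Hspa5, 58.1% of KO LPS cells and 88.4% of WT LPS cells had a UMI, below backgrounds of 67.8% and 95.8%. For Hsp90ab1, the shares of 49.4% and 73.0% stood beside 50.1% and 73.4%. At least 1 inducible UMI was present in 10.6% of KO LPS cells (7.47 to 14.5) and 23.1% of WT LPS cells (20.9 to 25.3). Their backgrounds were 15.3% and 25.2%, and without thinning the shares were 21.3% and 43.5%. At 500 UMIs, UMIs of Hspa1a or Hspa1b were found in 0 of 320 KO LPS cells, and without thinning in 1. At the floor of 3 counts, the count of 0 allows a share of cells with such a UMI of up to 0.938%. It sets no limit on cells that express the genes. In WT LPS the share at 500 UMIs was 1.54% (0.969 to 2.32), where the background was 1.88%. At this depth, cells with 2 or more inducible members numbered 0 in KO LPS, while 31 cells of WT LPS held 2 and 2 cells held 3.

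The number of chaperone UMIs per cell was close to that of near-empty barcodes, those of 100 UMIs or fewer. Such barcodes may hold RNA of the same cells, so that a match does not tell expression from free RNA. At 500 UMIs, a mean of 2.33 UMIs of the 10 members was held by cells of KO LPS and of 5.39 by those of WT LPS, where 500 UMIs from near-empty barcodes would hold 2.27 and 5.27. The medians were 2 and 5 UMIs, with the 10th and 90th percentiles at 0 and 5 in KO LPS and at 2 and 10 in WT LPS. At least 1 member UMI was found in 88.4% of KO LPS cells and 98.3% of WT LPS cells, below backgrounds of 89.7% and 99.5%, so that these counts were not read as expression per cell. Without thinning, the 10% of cells with most member UMIs, which were 32 and 143 cells, held 27.5% and 32.0% of them, while the deepest 10% of cells held 23.8% and 28.2% of all UMIs. Inducible UMIs, which are few, lay in fewer cells. Of them, the 10% of cells with most held 62.5% for KO LPS and 45.8% for WT LPS, while 286 of 320 and 1098 of 1427 cells had none at 500 UMIs. Across cells thinned to 500 UMIs, the Pearson r of log levels was taken for member pairs. It ran from -0.07 to 0.12 over 28 pairs in the 320 cells of KO LPS. In the 1427 cells of WT LPS, it ran from -0.05 to 0.14 over 45 pairs. Without thinning, the 5 genes most like the inducible sum in both libraries among 3552 genes were Ybx1, Lrrc58, Rpl34, Actb and Basp1. Their r ran from 0.12 to 0.19. At 500 UMIs it ran from -0.05 to 0.14 in KO LPS and from 0.03 to 0.09 in WT LPS. Cells of 1 library share their depth and preparation, and values this weak in sparse counts are no finding.

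The summed difference was nearly as large in near-empty barcodes as in cells. In barcodes with 100 UMIs or fewer, of which there were 9069 and 4267, the 10 members summed to 4544 and 10550 CPM, a ratio of 0.431 (0.400 to 0.464). Over all 5 ranges of depth this ratio lay between 0.406 and 0.472. The inducible ratio varied more, from 0.362 (0.248 to 0.514) in the next to deepest range to 0.619 (0.426 to 0.873) in the deepest, the latter from 35 UMIs in 34 cells of KO LPS. Hspa8 was the one member whose enrichment in cells over these near-empty barcodes had an interval above 1 in both libraries, at 2.06-fold in KO LPS (1.53 to 2.80) and 2.29-fold in WT LPS (1.96 to 2.70). Hspd1 stood at 1.69-fold (0.952 to 3.18) and 1.59-fold (1.26 to 2.04) and Dnaja1 at 1.08-fold (0.727 to 1.64) and 1.54-fold (1.21 to 1.97). Hsp90ab1 stood at 1.03-fold (0.892 to 1.198) and 1.30-fold (1.21 to 1.40). Hspa5 was not enriched, at 0.942-fold (0.838 to 1.06) and 0.829-fold (0.790 to 0.870). Dnajb1 stood at 0.365-fold (0.118 to 1.06) in KO LPS and at 3.55-fold (1.16 to 17.6) in WT LPS, from 10 and 3 UMIs in near-empty barcodes. The intervals of the other 4 members included 1 in both libraries. Near-empty barcodes held on average 21.9 UMIs for KO LPS and 74.0 for WT LPS. With these subtracted from each cell, the median log2 ratio of the members was -1.15, against -1.16 without. These barcodes held the members at nearly the level of cells, so that subtraction could hardly move the ratio and is no check. How many UMIs of a cell came from free RNA was not measured.

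**Figure D4:**
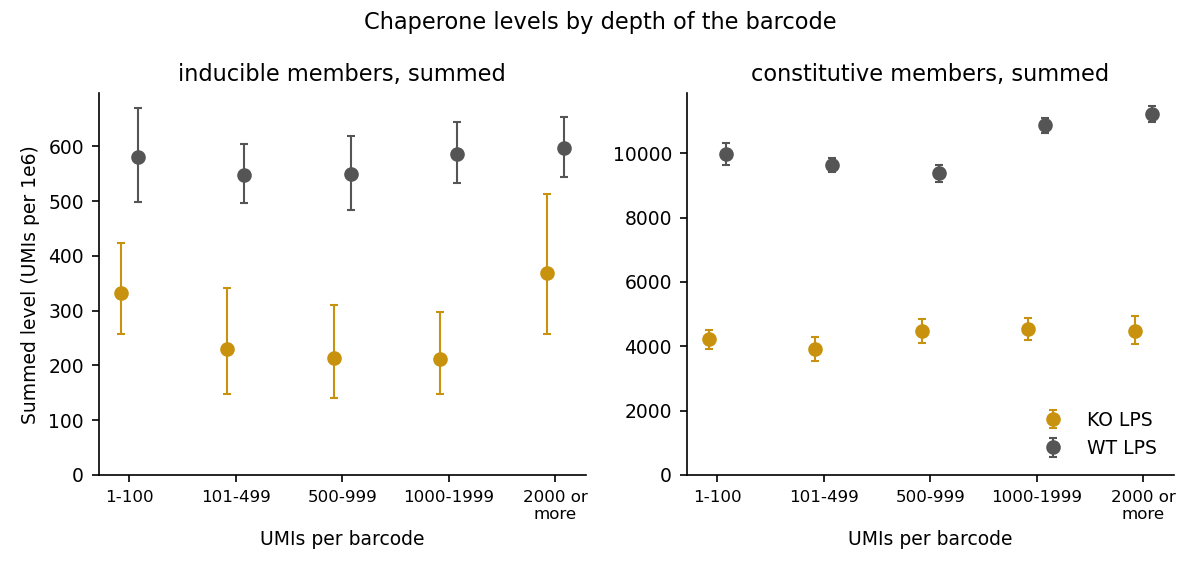
Summed level of the 5 inducible (left) and 5 constitutive (right) members in UMIs per 1e6, in barcodes grouped by their total UMIs, with exact 95% Poisson intervals. In each range of depth, KO LPS lies below WT LPS, and the constitutive sum stays between 3906 and 4527 CPM in KO LPS and between 9375 and 11226 CPM in WT LPS.

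Inflammatory transcripts moved with the same contrast. Of the 20 genes of the inflammatory list, 18 had at least 20 UMIs, and these 18 were lower in KO LPS by at least 1.5-fold, beside 25.8% of all genes. The 4 genes Saa3, Lcn2, Ccl5 and Cxcl10 had 0 UMIs in KO LPS. Most of the 18 genes, among them Il1b with 1 UMI against 322, reached this minimum only through WT LPS. Their count is therefore not independent of the filter. The list summed to 740 CPM against 9338 CPM, and the median log2 ratio of the 18 genes was -2.89 (the same with the 4 genes at 0 placed at their bound). Saa3, an acute phase protein, had 0 UMIs against 8367 and was at least 535-fold lower, and Il1a, a cytokine, differed least, with a ratio of 0.647 (0.366 to 1.07). Cells were also compared at equal inflammatory UMIs, after thinning to 500 UMIs. A cell with 0 such UMIs may still express the listed genes, so that equal counts do not make inflammatory states equal. Whether the chaperone ratio depends on inflammation was not tested. No UMI of these 20 genes was present in 233 KO LPS cells and 218 WT LPS cells. Between these cells, the 10 members summed to 4386 and 9101 CPM, a ratio of 0.482 (0.432 to 0.537). The ratio was 0.411 (0.349 to 0.482) for Hspa5, 0.526 (0.430 to 0.641) for Hsp90ab1, 0.630 (0.452 to 0.875) for Hspa8, 0.481 (0.257 to 0.873) for Hspd1 and 0.378 (0.216 to 0.638) for the inducible sum. Dnaja1 did not differ between these cells beyond counting error, with 28 and 24 UMIs and a ratio of 1.09 (0.610 to 1.97). In the 84 and 542 cells with 1 or 2 inflammatory UMIs, the ratio of all members was 0.488 (0.425 to 0.560). Only 3 cells of KO LPS held 3 or more. When all cells of KO LPS were set against the WT LPS cells without inflammatory UMIs, a comparison added after the data had been seen, 5 of 7 members with enough UMIs were lower by at least 1.5-fold, against 21.3% of all genes.

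Within WT LPS, cells with more inflammatory UMIs held somewhat more chaperone UMIs. The 667 cells with 3 or more had 11190 CPM of the 10 members and the 218 cells with 0 had 9101 CPM, a ratio of 1.23 (1.15 to 1.32). It was 1.99 (1.29 to 3.203) for Dnaja1, 1.32 (1.16 to 1.51) for Hsp90ab1, 1.14 (1.03 to 1.26) for Hspa5 and 1.23 (0.903 to 1.71) for the inducible sum. Cells of 1 library are not replicates, so that these ratios describe this library.

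Immediate early genes such as Fos and Jun, which respond to dissociation, were called in both directions at shares near those of all genes. Of 13 genes with enough UMIs, 4 were lower and 3 higher in KO LPS by at least 1.5-fold, beside 25.8% and 26.2% of all genes, with a median log2 ratio of 0.01 and summed levels of 2557 and 2620 CPM. The extremes were Ier3, with a ratio of 0.0404 (0.00487 to 0.148), and Jund, with 1.88 (1.51 to 2.32). In cells with 0, with 1 or 2 and with 3 or more immediate early UMIs, the ratio of the 10 members was 0.395 (0.346 to 0.449), 0.436 (0.389 to 0.487) and 0.511 (0.427 to 0.608). Within KO LPS, cells with 3 or more immediate early UMIs had 1.36-fold more member UMIs than cells with 0 (1.10 to 1.68), and within WT LPS 1.05-fold more (0.984 to 1.13).

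The wider chaperone network was described by 9 lists with 144 genes, of which 124 had at least 20 UMIs. Of these, 54 were lower by at least 1.5-fold in KO LPS and 9 were higher, beside 25.8% and 26.2% of all genes, and their median log2 ratio was -0.39. The lists differed among themselves.

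Chaperones of the ER, which fold secreted and membrane proteins together with Hspa5, were lower nearly throughout. Of 22 genes, 19 were lower by at least 1.5-fold and 0 were higher, beside 25.8% and 26.2% of all genes, with a median log2 ratio of -1.22 and summed levels of 8933 and 17715 CPM. Manf, a secreted partner of BiP, was lowest, at 134 and 623 CPM and a ratio of 0.215 (0.159 to 0.284), and Ero1lb, an oxidase that serves disulphide formation, was highest, at 0.830 (0.315 to 1.86). The abundant Hsp90b1, the HSP90 of the ER, had 3367 and 5331 CPM (0.632, 0.596 to 0.669), the lectin chaperone Calr 1529 and 3187 CPM (0.480, 0.440 to 0.522) and the disulphide isomerase Pdia3 860 and 2282 CPM (0.377, 0.336 to 0.422). Promoters were listed for 19 genes of this list, and 7 held an ERSE like that of Hspa5, namely Calr, Canx, Creld2, Dnajc3, Ero1b (the current symbol of Ero1lb), Hsp90b1 and Pdia6. A match at any listed start site counted here. Of these 7 genes, 5 were lower by 1.5-fold, as were 14 of the other 15 genes of the list. These other genes include those without a listed promoter, which were not searched for an ERSE. The regulators of the unfolded protein response had 4 of 12 lower and 0 higher, beside the same 25.8% and 26.2%, and a median log2 ratio of -0.07. Herpud1, which serves the degradation of misfolded ER proteins, was lowest (0.471, 0.337 to 0.645), Xbp1, a transcription factor of the response, had a ratio of 0.554 (0.428 to 0.707) and Ddit3, which encodes the transcription factor CHOP, was highest (1.48, 0.933 to 2.26).

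**Figure D5:**
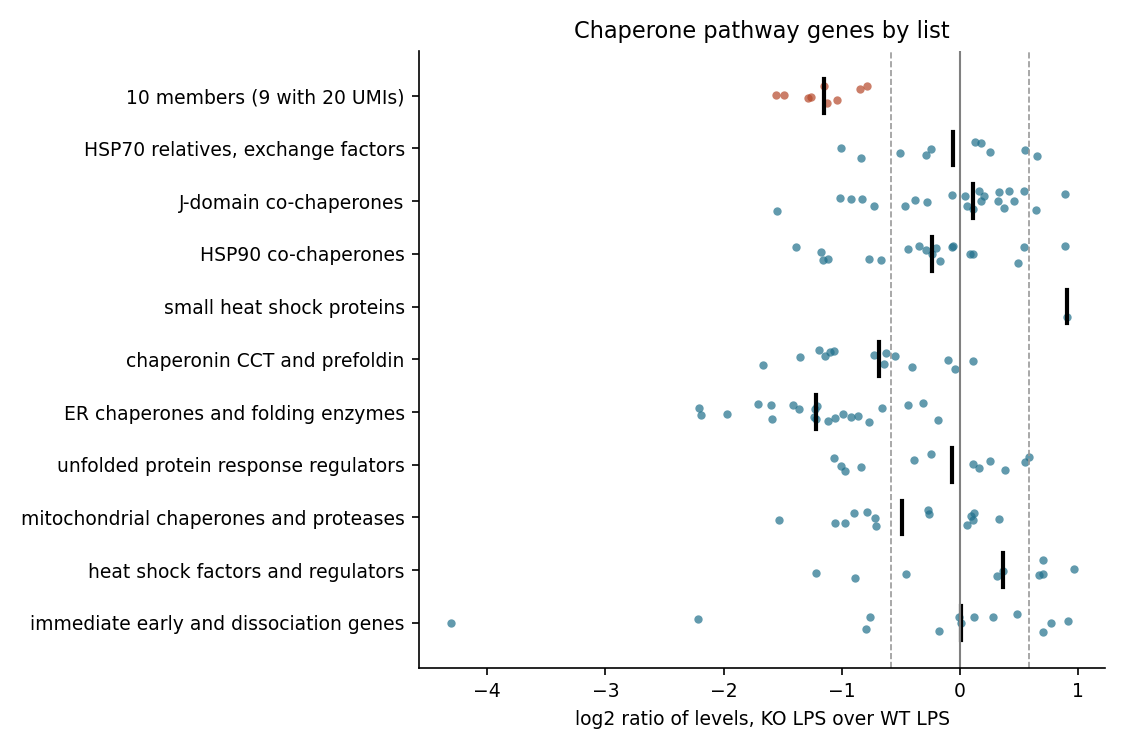
Log2 ratio of levels, KO LPS over WT LPS, of each gene with at least 20 UMIs, by list, with the median of the list as a black bar and dashed lines at 1.5-fold. Hspa1a is drawn at its bound, and the 9 members and the ER list have the lowest medians of the lists drawn, -1.15 and -1.22, while J-domain co-chaperones centre on 0.11.

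In the cytosol, the chaperonin CCT, which folds actin and tubulin, and prefoldin, which delivers them, had 9 of 14 genes lower and 0 higher, beside 25.8% and 26.2% of all genes, with a median log2 ratio of -0.69. Cct5 was lowest, at 44.6 and 146 CPM (0.306, 0.176 to 0.498), and Pfdn5 highest (1.07, 0.793 to 1.43). HSP90 co-chaperones had 6 of 19 lower, a share near that of all genes, and 1 higher, with a median of -0.24. Fkbp5, a co-chaperone of steroid receptors, was lowest (0.380, 0.297 to 0.481) and Tomm34 highest (1.82, 1.07 to 3.001). Stip1, which links HSP70 to HSP90, had a ratio of 0.433 (0.288 to 0.630).

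Most other partners of HSP70 lay within 1.5-fold. Over all genes, 25.8% were lower and 26.2% higher by this fold, and the shares of lower genes in the lists that follow were near or below the first of these. J-domain co-chaperones had 5 of 23 lower and 2 higher, with a median log2 ratio of 0.11 and equal summed levels (2536 and 2585 CPM, a ratio of 0.981, 0.915 to 1.05). Among genes with at least 50 UMIs, the extremes were Dnajc17 (0.295, 0.0590 to 0.911) and Dnajc24 (1.53, 0.882 to 2.56), and Dnajc27, with 5 and 15 UMIs, stood at 1.74 (0.494 to 5.03). HSP70 relatives and exchange factors had 2 of 10 lower, Hspa4 (0.556, 0.439 to 0.696) and Hspa13 (0.481, 0.2499 to 0.849), and 1 higher, with a median of -0.06 and Bag5 highest among genes with at least 50 UMIs (1.44, 0.897 to 2.25). Heat shock factors and their regulators had 2 of 9 lower and 4 higher, with a median of 0.36. Hsf1, the main heat shock factor, had 7 and 30 UMIs and a ratio of 1.22 (0.451 to 2.83). Among genes of this list with at least 50 UMIs, Hsbp1, a binder of heat shock factor, was lowest (0.534, 0.382 to 0.729) and Crebbp, an acetyltransferase, highest (1.94, 1.54 to 2.42). Hsf2, a further heat shock factor with 3 and 42 UMIs, had a ratio of 0.373 (0.0739 to 1.17). Only Hspb3 of the small heat shock proteins had enough UMIs, 9 and 26, and its ratio of 1.81 (0.744 to 3.98) was within counting error.

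In mitochondria, 7 of 14 chaperones and proteases were lower and 0 higher, beside 25.8% and 26.2% of all genes, with a median log2 ratio of -0.49. Hspe1, the lid of the Hspd1 chamber, had 105 and 208 CPM (0.504, 0.355 to 0.698), and Hspa9, the mitochondrial HSP70, 126 and 208 CPM (0.606, 0.440 to 0.819). Afg3l2, a subunit of an inner membrane protease, was lowest (0.332, 0.163 to 0.608) and Lonp1, the matrix protease, highest (1.24, 0.769 to 1.94).

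The libraries were also compared within cells that carried transcripts of one sex, since these cells were present in different proportions. In the 200 and 565 cells with an Xist UMI and no Y-linked UMI, the 10 members summed to 4628 and 11440 CPM, a ratio of 0.405 (0.381 to 0.430). In cells with a Y-linked UMI and no Xist UMI, it was 0.336 (0.251 to 0.440), from 12 and 195 cells. Only 12 cells of KO LPS fell in this class, so that its values for single genes are not resolved.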

How the data were processed

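Drop-seq libraries of sorted microglia, 1 per genotype, were analysed from matrices of raw counts (UMIs per gene and barcode) that the authors deposited without normalisation, with 9999 barcodes each and not limited to cells. The submitters' notes name bcl2fastq 2.0, STAR and the builds mm9 and mm10 without their roles, and the counting program, annotation and strand setting are not given in the sources used here. Genes not listed in a library (5616 in KO LPS, 3036 in WT LPS) carry missing values there, read as 0. Cells were grouped by the genotype label of their library.

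Ratios used summed UMIs with scipy 1.17.1 on Python 3.11.15 (pandas 2.3.3, numpy 2.4.6), with exact Poisson, conditional binomial and Clopper-Pearson 95% intervals, log2 ratios a prior count of 0.5 and bounds a floor of 3 counts in the library. UMIs measure molecules, but losses before tagging are not covered. Thinning drew 1 random subset per cell. Doublets were left in, and an alternative dropped the calls of Scrublet in scanpy 1.11.5, 19 in KO LPS (5.94%) and 5 in WT LPS (0.350%, too few to show that it worked). Calculations were tested on simulated data.

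The members and lists were chosen with earlier results of these data known. Named are all 10 members, Park7, the highest and lowest gene of each list with at least 50 UMIs (members left out), and the 5 genes most like the inducible sum by the lower Pearson r of the 2 libraries, on log(1 + UMIs per 10000), among genes in at least 5% of the cells of each. Other genes were named after their values were seen.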

Additional observations from a re-analysis of the deposited data

Results flagged for a closer look

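Barcodes with 100 UMIs or fewer are outside the comparison of cells, and 12 ratios were computed there, for the 10 members and both sums. Only Dnajb1 stood higher in KO LPS beyond counting error, with 10 UMIs in 10 of 9069 barcodes against 3 UMIs in 3 of 4267 barcodes of WT LPS. The ratio of its levels was 5.3 (1.36 to 29.9), whereas in cells it was 0.545 (0.211 to 1.19). The interval was not adjusted for the 12 ratios looked at.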

How the results depend on the processing

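The median log2 ratio of the members, -1.16, ranged from -1.59 to -0.92 over 12 alternatives, the summed inducible level, -1.20, from -1.47 to -1.04, and the summed constitutive level, -1.24, from -1.57 to -1.06. Of 113 values of single members under these alternatives, 103 lay within the counting interval of the main value. A further 8 lay outside it but below 0, and 2 lay outside it and above 0. All values of Hspa1a, Hspa1b and Dnajb1, whose intervals are wide, were among the 103, so that this count overstates stability. In cells with a Y-linked UMI and no Xist UMI, of which KO LPS had 12, the log2 ratio turned to 0.92 for Hsph1 and 0.42 for Dnaja1, the constitutive sum moved to -1.57 and the inducible over constitutive UMIs from 0.04 to 0.43. Against WT LPS cells with 0 inflammatory UMIs, a comparison added after the data had been seen, the constitutive sum moved to -1.06 and the count of members lower by 1.5-fold from 9 to 5, where 7 had enough UMIs. At 2-fold, 32 rather than 54 list genes were lower. The share of cells with an inducible UMI, KO LPS minus WT LPS, moved from -12.43 points at 500 UMIs to -22.27 points without thinning and -17.47 points at 1000 UMIs. The causes were not tested. With 3 UMIs as the floor, depth limits Hspa1a, Hspa1b and Dnajb1, for which KO LPS held 0, 1 and 7 UMIs. No paired analysis was possible because each genotype had 1 library.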
